A study of Homo sapiens with 4 samples.

Results

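At a DNA replication fork the CMG helicase (the MCM ring with CDC45 and the GINS complex) unwinds the double helix, and polymerase alpha-primase lays down short primers. The clamp loader RFC places the sliding clamp PCNA at each primer, after which polymerase epsilon copies the leading strand and polymerase delta the lagging strand. FEN1, DNA2 and LIG1 turn the lagging fragments into one continuous strand, RPA coats exposed single strands, and histone chaperones rebuild chromatin behind the fork. In proliferating T cells many of these genes are transcribed around entry into S phase under E2F factors.

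The genes described here are 37 components of this machinery, from the GINS and CDC45 group to the polymerases, the clamp and its loader, RPA, chromatin assembly factors and checkpoint partners of the fork. Their members were the probe sets of the Affymetrix HG-U133 Plus 2.0 array that the platform annotation assigns to a single gene on that list. All 37 genes were found, with 67 probe sets, among 19775 genes and 54613 probe sets measured. The probe set of a gene with the highest log2 signal, averaged over the arrays, stands for that gene, and all 37 of these exceeded the median of all signals, 72.3.

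RNA came from Kit225, a human leukemic T cell line that needs interleukin-2 (IL-2) to grow. All cultures were kept with 20 U/ml IL-2 and exposed for 12 hours either to NC1153, known as an inhibitor of JAK3 signalling downstream of the IL-2 receptor, or to its solvent DMSO. NC1153 was used at 25 mM per the labels, a unit that may be a slip for micromolar and could not be settled from these sources, and DMSO at 0.1%. There are 2 arrays per condition, which the titles number 1 and 2. Nothing says whether they came from separate cultures, so the p-values cover the spread among these arrays alone, and it may be technical.

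Of 9 T cell markers, CD2, CD4, IL2RA, IL2RB and IL2RG had signals of at least 946 on every array, while CD3D, CD3E, CD3G and CD5 lay between 7.81 and 140, and the 7 measured markers of other blood cells between 4.12 and 231. IL2RB, the IL-2 receptor beta chain, was the single one of these markers that passed the test, and it fell by 2.76 on the log2 scale (adjusted p = 0.00018). Scaling factors in the header of the authors' deposited table were 6.68 for NC1153 replicate 1 and 2.66 to 2.97 for the other arrays. All 18 spiked-in control probe sets were higher with NC1153, with a median log2 difference of 0.42. The part of these shifts in the results below was not tested beyond the alternative scalings given with them.

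The comparison asks whether fork genes differed in signal after 12 hours of NC1153. Members fell into 9 groups by role. The genes that fell belong to GINS, polymerase alpha, polymerase epsilon, the clamp group, the clamp loader and the fork protection complex. No gene of polymerase delta, RPA or chromatin assembly passed the test. Median log2 differences were -0.26 for polymerase delta, -0.31 for chromatin assembly and 0.11 for RPA. Differences between groups were not tested. In all, 9 of the 37 genes were lower with NC1153 at an adjusted p under 0.05 (limma, adjusted over all probe sets), which is 24.3%, where 2.84% of all genes were called lower. None was called higher, where 3.09% of all genes were, a share low enough that 0 of 37 says little. None had a positive difference at an unadjusted p under 0.05, where 10.7% of all genes did. The 9 are FEN1, PCNA, POLA1, GINS1, TIPIN, GINS3, POLE3, POLA2 and RFC3. At an unadjusted p under 0.05, 21 of the 37 genes were lower, where 9.66% of all genes were lower and 10.7% higher. The median log2 difference (NC1153 minus DMSO) was -0.51 over the 37 genes and 0.002 over all genes. Both NC1153 arrays lay below both DMSO arrays for 28 of the 37 genes, or 75.7%, where 23.8% of all genes did so. GINS4 and PRIM1 had both above, as 24.5% of all genes did, and 7 genes overlapped. These shares of all genes apply to each gap between conditions given below, so a gap alone is common. Bulk RNA cannot tell fewer cells in S phase from less of these transcripts per cell.

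The number of calls rests on the variance model and on single arrays. Over all probe sets 971 were called lower and 1062 higher as reported. These became 0 and 0 with no trend in the variance prior, and 24 and 23 with each array centred on its median. With no trend in the variance prior, and with each array centred on its median, limma called 0 of the 37 genes (3 and 14 lower at an unadjusted p under 0.05). Leaving out NC1153 replicate 1, DMSO replicate 1 or DMSO replicate 2 reduced the number called lower, and leaving out NC1153 replicate 2 raised it. The number of probe sets called lower over the whole array moved the same way each time. The median log2 difference of the 37 genes stayed between -0.50 and -0.48 when a single array was left out. In such a fit 1 condition has a lone array, which is assumed to vary like the arrays of the other condition, so its p-values rest on the pair that is left and the prior. A fit blocked on replicate number had 17 lower and 0 higher, where 5.18% and 5.39% of all genes were called. FEN1 kept its call without each of the 4 arrays (adjusted p up to 0.026), PCNA lost it without DMSO replicate 1 (adjusted p = 0.052), and the other 7 lost it without 2 or more of the arrays.

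**Figure D1:**
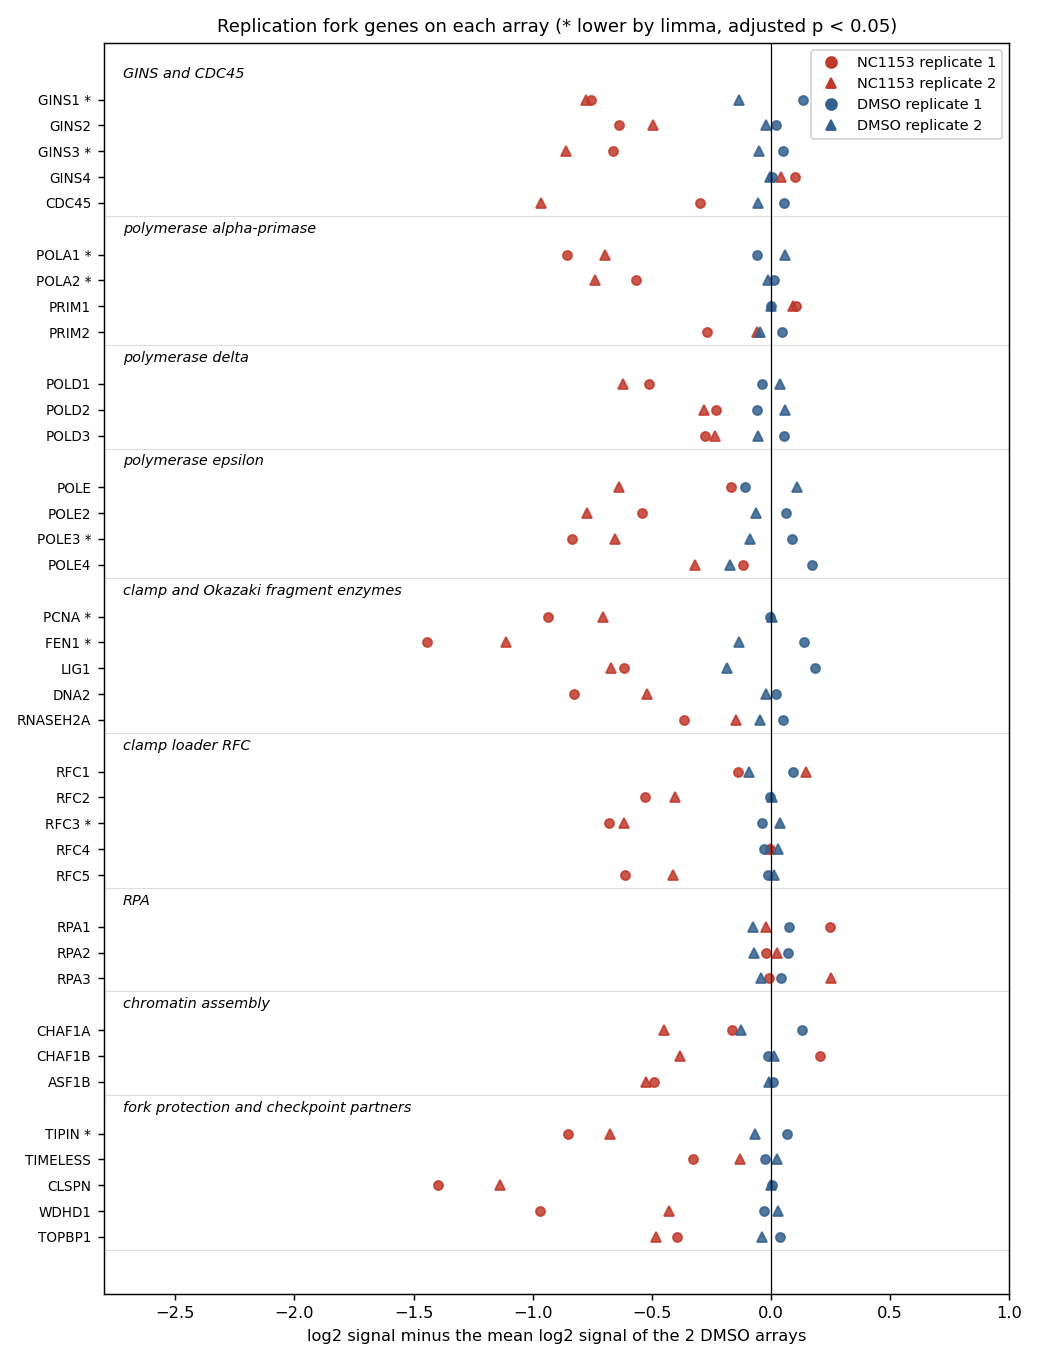
Log2 signal of the 37 fork genes on each array, relative to the mean of the DMSO arrays of the same gene, with circles for replicate 1 and triangles for replicate 2. The NC1153 points of FEN1, PCNA and GINS1 lie well left of their DMSO points, while those of RPA1, RPA2 and RPA3 mix with them, and 28 genes have both NC1153 points left of both DMSO points.

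Promoters of the fork genes were searched for the letters of E2F sites. A link between a match and the fall was not tested, and the share among all genes called lower is not given. The searched letters were TTTCCCGC, TTTCGCGC, TTTGCCGC and TTTGGCGC on both strands, with overlapping matches counted separately, in windows of 250 bases before to 50 bases after the start of a gene (RefSeq, GRCh38.p14). Of 32 fork genes with a window in that table, 14 held a match in at least 1 of their windows, or 43.8%, where 3.99% of 27305 genes did. Among the 9 genes that fell 7 held one (GINS1, GINS3, POLA1, POLA2, PCNA, RFC3 and TIPIN), and FEN1 and POLE3 did not. Among the 23 other fork genes with a window, 7 did (GINS2, POLE, POLE2, POLE4, LIG1, CLSPN and TOPBP1). Of these 7, GINS2, POLE2 and CLSPN had limma adjusted p of 0.059, 0.064 and 0.056, near the threshold. The CCAAT box (letters CCAAT) was in windows of 18 of the 32 genes, 56.2% against 39.7% of all genes, and the CHR element (TTTGAA) in 2, 6.25% against 18.2%. GINS4, POLD3, DNA2, RPA2 and RPA3 were not matched. A match is a run of letters, not a measured binding site, and no match says nothing about E2F.

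Below are the windows of the 3 genes that fell most among those with a match, and of RFC1, whose difference was the nearest to 0 among genes with a window. Capitals mark the E2F letters, which lie on the strand opposite to the gene in PCNA, POLA1 and GINS1, from base -59, -137 and 5 relative to the start. RFC1 held none of the searched E2F letters, and neither did another PCNA window in the table (chr20:5119909-5120208, minus strand), which is not printed. The coordinates are chr20:5126573-5126872 (minus strand) for PCNA, chrX:24693668-24693967 (plus strand) for POLA1, chr20:25407423-25407722 (plus strand) for GINS1 and chr4:39366313-39366612 (minus strand) for RFC1.
PCNA: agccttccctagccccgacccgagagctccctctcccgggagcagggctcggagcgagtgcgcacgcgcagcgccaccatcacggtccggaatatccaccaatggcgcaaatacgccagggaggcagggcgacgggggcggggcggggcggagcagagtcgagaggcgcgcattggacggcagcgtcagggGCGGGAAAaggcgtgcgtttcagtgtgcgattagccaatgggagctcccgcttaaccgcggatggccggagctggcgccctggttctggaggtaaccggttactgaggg
POLA1: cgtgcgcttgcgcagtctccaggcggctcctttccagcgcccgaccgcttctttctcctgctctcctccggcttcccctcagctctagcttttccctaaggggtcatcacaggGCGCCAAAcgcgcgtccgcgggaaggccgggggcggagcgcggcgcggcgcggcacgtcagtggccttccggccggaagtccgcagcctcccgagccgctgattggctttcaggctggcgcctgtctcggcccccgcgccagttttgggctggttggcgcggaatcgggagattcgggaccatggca
GINS1: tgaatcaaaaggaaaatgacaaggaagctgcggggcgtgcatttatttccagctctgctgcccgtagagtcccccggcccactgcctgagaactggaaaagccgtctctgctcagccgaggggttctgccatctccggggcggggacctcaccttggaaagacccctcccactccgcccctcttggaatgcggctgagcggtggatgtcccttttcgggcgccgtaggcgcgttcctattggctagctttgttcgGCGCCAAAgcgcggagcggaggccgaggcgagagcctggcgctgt
RFC1: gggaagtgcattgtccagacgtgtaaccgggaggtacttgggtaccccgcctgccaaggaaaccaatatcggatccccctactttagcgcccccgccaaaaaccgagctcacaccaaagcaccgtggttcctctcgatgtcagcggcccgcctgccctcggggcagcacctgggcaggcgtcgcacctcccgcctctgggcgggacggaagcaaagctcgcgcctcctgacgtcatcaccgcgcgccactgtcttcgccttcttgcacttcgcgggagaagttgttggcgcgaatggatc

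GINS and CDC45 complete the helicase with the MCM ring, and 2 of these 5 genes fell. GINS1, the gene of the PSF1 subunit, had signals of 3077 and 3033 on NC1153 replicates 1 and 2 and of 5704 and 4727 on DMSO replicates 1 and 2. Its log2 difference was -0.77 (SE 0.14, n = 2 each, adjusted p = 0.022). GINS3, another of the 4 GINS subunits, had signals of 784 and 685 with NC1153 and of 1287 and 1200 with DMSO, a difference of -0.76 (SE 0.17, adjusted p = 0.047). The 2 conditions did not overlap for either gene. GINS2 and CDC45 had values in the same range that did not pass, -0.57 (adjusted p = 0.059) and -0.63 (adjusted p = 0.17). The other 2 GINS2 probe sets, with signals up to 130, had -0.81 and 1.02 (adjusted p = 0.74 and 0.77). The mean over the GINS2 probe sets was -0.12 (adjusted p = 0.94). For CDC45 the NC1153 arrays lay apart, at 1680 and 1057 against 2144 and 1987 with DMSO. GINS4, whose product sits in the same complex, had signals of 822 and 789 with NC1153 and 767 and 765 with DMSO, a difference of 0.07 (SE 0.18, adjusted p = 0.92). Its 3 other probe sets ranged from -0.55 to 0.82, none past the threshold. Differences between subunits of a complex were not tested, here or below.

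Polymerase alpha-primase starts every new strand. The 2 polymerase genes of the complex fell and the 2 primase genes did not pass. POLA1, the catalytic subunit, had signals of 830 and 927 with NC1153 against 1445 and 1566 with DMSO, a log2 difference of -0.78 (SE 0.16, adjusted p = 0.035). POLA2, the accessory B subunit, had 1604 and 1427 against 2397 and 2360, a difference of -0.65 (SE 0.15, adjusted p = 0.045). The 2 dimmer POLA2 probe sets had positive values, 0.76 and 2.23 (adjusted p = 0.53 and 0.37), with signals up to 221, so that the mean over the gene's probe sets was 0.78 (adjusted p = 0.39). PRIM1, which makes the RNA primer, stood at 3262 and 3234 against 3032 and 3028, a difference of 0.10 (SE 0.13, adjusted p = 0.82). PRIM2, the large primase subunit, had a difference of -0.17 (SE 0.14, adjusted p = 0.68). The conditions did not overlap for any of the 4 genes, with PRIM1 the single one on the higher side. Of all genes 23.8% had such a gap on the lower side and 24.5% on the higher side.

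Polymerases delta and epsilon copy the bulk of the genome, and of their 7 genes POLE3 was the one that fell. POLE3, a small histone-fold subunit of polymerase epsilon, had signals of 2294 and 2601 with NC1153 and of 4344 and 3851 with DMSO. The log2 difference was -0.74 (SE 0.14, adjusted p = 0.025). Its histone-fold partner POLE4 had a difference of -0.22 (SE 0.18, adjusted p = 0.65), and its arrays overlapped. POLE2, the accessory B subunit, stood at 1216 and 1034 against 1846 and 1692, a difference of -0.66 (SE 0.16, adjusted p = 0.064). The catalytic subunit gene POLE had -0.40 (SE 0.23, adjusted p = 0.47), with 570 and 411 on the NC1153 arrays against 594 and 690. Among the polymerase delta genes the catalytic subunit POLD1 had -0.57 (SE 0.17, adjusted p = 0.12). Its accessory subunits POLD2 and POLD3 had -0.26 each (adjusted p = 0.42 and 0.48). For all 3 delta genes both NC1153 arrays were below both DMSO arrays, as for 23.8% of all genes. Over the 11 subunits of polymerase alpha-primase, delta and epsilon 3 fell, 8 did not pass and the median was -0.40.

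The clamp and the enzymes that mature Okazaki fragments held the 2 genes with the lowest adjusted p among the 37. FEN1, the endonuclease that cuts the displaced flap, had signals of 2935 and 3696 on the NC1153 arrays and of 8785 and 7270 on the DMSO arrays. Its log2 difference of -1.28 (SE 0.16, adjusted p = 0.0046) is a signal of 0.412 times the DMSO level. A second FEN1 probe set stood at 2222 and 2142 against 5320 and 4822, a difference of -1.22 (adjusted p = 0.0028). PCNA, the sliding clamp whose promoter is printed above, had 7046 and 8273 against 13450 and 13537, a difference of -0.82 (SE 0.13, adjusted p = 0.013). On every NC1153 array FEN1 and PCNA were below both DMSO arrays. LIG1, the ligase that seals the fragments, had -0.65 (SE 0.19, adjusted p = 0.12). DNA2, a helicase and nuclease for long flaps, had -0.67 (SE 0.18, adjusted p = 0.075). RNASEH2A, the catalytic subunit of the RNase H2 that removes RNA from DNA, had -0.26 (SE 0.14, adjusted p = 0.43). None of these 3 overlapped between the conditions, all on the lower side, where 23.8% of all genes had such a gap.

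The clamp loader RFC opens the PCNA ring, and 1 of its 5 subunit genes fell. RFC3 had signals of 3000 and 3133 with NC1153 and of 4684 and 4930 with DMSO, a log2 difference of -0.65 (SE 0.13, adjusted p = 0.029). Another RFC3 probe set also fell, by 0.87 on the log2 scale (adjusted p = 0.012), and the remaining one, with signals up to 569, had 0.09 (adjusted p = 0.95). The mean over the 3 sets was -0.47 and did not pass (adjusted p = 0.17). The small subunit genes RFC5 and RFC2 had differences of -0.51 (adjusted p = 0.10) and -0.47 (adjusted p = 0.13), with conditions that did not overlap on any of their 5 probe sets. RFC4, also a small subunit, stood at 7972 and 7962 against 7834 and 8155, a difference of -0.005 (SE 0.12, adjusted p = 0.99). RFC1, the large subunit, whose promoter is also printed above, had 2072 and 2528 against 2433 and 2140, a difference of 0.005 (SE 0.16, adjusted p = 0.99). The 5 subunits thus ranged from -0.65 to 0.005, and the arrays of RFC1 and RFC4 overlapped.

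RPA is the trimer that binds single strands, and none of its 3 genes passed the test, also at an unadjusted p under 0.05. RPA1 had signals of 7671 and 6367 with NC1153 and of 6822 and 6138 with DMSO, a log2 difference of 0.11 (SE 0.14, adjusted p = 0.81). RPA2 had 2635 and 2722 against 2812 and 2544, a difference of 0.002 (SE 0.14, adjusted p = 1.00). RPA3 had 6932 and 8287 against 7171 and 6776, a difference of 0.12 (SE 0.14, adjusted p = 0.78). The conditions overlapped for each of the 3 genes. With each array centred on the spiked-in controls their values were -0.27, -0.38 and -0.26 (adjusted p = 0.40, 0.31 and 0.55), while that scaling set the median of all genes to -0.38.

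Chromatin assembly genes did not pass. ASF1B, a chaperone that hands histones H3 and H4 to the assembly factor CAF-1, had signals of 2389 and 2333 with NC1153 and of 3384 and 3339 with DMSO. The log2 difference was -0.51 (SE 0.13, adjusted p = 0.078), and the conditions were apart by more than the spread of either. CHAF1A, the large subunit of CAF-1, had -0.31 (SE 0.17, adjusted p = 0.46), and 4 probe sets that ranged from -1.05 to -0.20. CHAF1B, its middle subunit, had -0.09 (SE 0.23, adjusted p = 0.92), with NC1153 signals of 888 and 590 on either side of the DMSO signals of 763 and 778. Among the further fork factors described below, the histone chaperone genes SUPT16H and NASP were lower, at -0.83 and -0.60 (adjusted p = 0.011 and 0.042). Of the same list SSRP1, RBBP4, RBBP7 and TONSL, which also bind histones, did not pass. ASF1A, the paralogue of ASF1B, rose by 0.73 (SE 0.13, adjusted p = 0.016), from 6170 and 5730 with DMSO to 10011 and 9681. It was named after its value was seen, and its call was lost without either DMSO array and with median or spike-in centring.

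Partners that stabilise the fork and signal its stalling had a median of -0.70, and 1 of 5 fell. TIPIN, a subunit of the fork protection complex, had signals of 836 and 947 with NC1153 and of 1582 and 1444 with DMSO, a log2 difference of -0.76 (SE 0.17, adjusted p = 0.038). TIMELESS, its partner in that complex, had 1776 and 2039 against 2193 and 2266, a difference of -0.23 (SE 0.15, adjusted p = 0.54). Its other probe set, with signals from 8.60 to 91.6, had -1.55 (adjusted p = 0.60). CLSPN, the mediator that lets ATR activate CHK1, was the dimmest of the 37 genes. Its signals were 135 and 162 with NC1153 against 357 and 356 with DMSO, a difference of -1.27 (SE 0.30, adjusted p = 0.056). The 3 other CLSPN probe sets ranged from -1.47 to 1.51, and none passed, with a mean over all 4 of -0.31 (adjusted p = 0.82). WDHD1, which ties polymerase alpha to the helicase, had -0.70 (SE 0.23, adjusted p = 0.16) and its 3 probe sets were all lower on both NC1153 arrays. TOPBP1, an activator of ATR, had -0.44 (SE 0.14, adjusted p = 0.14). Both NC1153 arrays lay below both DMSO arrays for each of the 5 genes, as for 23.8% of all genes.

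**Figure D2:**
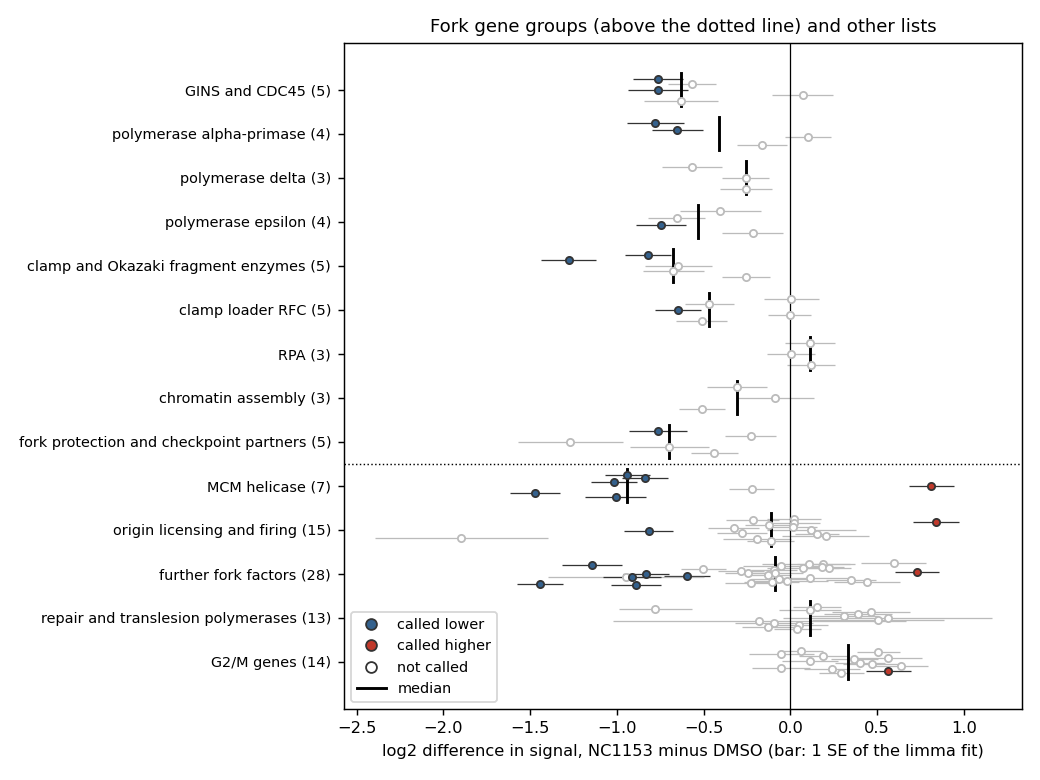
Log2 difference in signal of each gene with 1 SE of the limma fit, by group of fork genes (above the dotted line) and in 5 other lists, with the number of genes in brackets and a black line at the median. Medians of the fork groups run from -0.70 for fork protection and checkpoint partners to 0.11 for RPA, and blue points are genes called lower.

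Dimmer probe sets of the same genes varied more. Of the 67 probe sets 11 were called lower and 0 higher, where 1.78% and 1.94% of all probe sets were called, and the 11 include 2 further sets of FEN1 and RFC3. For 21 genes a single probe set was measured, and 16 had more. The 6 other probe sets of the 9 genes that fell were 3 below and 3 above 0. Probe sets ending in _x_at, which can bind related transcripts, were the brightest for RFC1 and CHAF1A.

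The authors' deposited table, a selection of 2252 probe sets made from RMA values, lists 13 probe sets of 11 fork genes, which is 19.4% of the 67, where it holds 4.12% of all probe sets. All 13 were lower with NC1153 there, and the share of lower probe sets among all 2252 is not given here. They cover each of the 9 genes that fell here except TIPIN, and also CDC45, POLD1 and POLE2. In the authors' deposited table the RMA values of PCNA were 11.6 and 12.1 with NC1153 and 12.9 and 13.0 with DMSO, a difference of -1.08, and those of FEN1 differed by -1.17. For POLD1 the authors' deposited table has 8.11 and 8.10 with NC1153 and 9.09 and 9.11 with DMSO, a difference of -0.996. On the signals used here POLD1 had a difference of -0.57 and did not pass (limma adjusted p = 0.12), so whether it is selected depends on how the arrays were summarised. Both tables come from the same arrays, so one is no independent check of the other.

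Other genes of the replication pathway gave a frame for these values. Of the 7 MCM helicase genes 5 fell and 1 rose, with MCM7 at -1.47, MCM4 at -1.02, MCM10 at -1.01 and MCM2 at -0.94 on the log2 scale (adjusted p up to 0.016). MCM5, the one that rose, was at 0.81 (adjusted p = 0.011) and was named after its value was seen. No MCM gene was called higher without DMSO replicate 1, or with median or spike-in centring. Of 15 origin licensing and firing genes 13 did not pass. GMNN, the inhibitor of licensing, fell by 0.82 (adjusted p = 0.015) and ORC3 rose by 0.84 (adjusted p = 0.011). With spike-in centring 0 of these 15 genes were called higher. Of 28 further fork factors 6 fell and 1, ASF1A, rose. The 6 became 2 with means over probe sets, and 4 without NC1153 replicate 1 or without DMSO replicate 1. UHRF1, which brings DNA methylation to new strands, was at -1.44, DSCC1, a subunit of an alternative clamp loader, at -1.14, the checkpoint kinase ATR at -0.91 and the methyltransferase DNMT1 at -0.89 (adjusted p up to 0.021). None of 13 repair and translesion polymerase genes passed, and their median was 0.11. At an unadjusted p under 0.05, 1 of them was lower and 0 higher, where 9.66% and 10.7% of all genes were. Of 14 G2/M genes 1 rose, TPX2, a spindle factor, at 0.56 (adjusted p = 0.0496), 0 fell, and the median was 0.33. At an unadjusted p under 0.05, 8 of the 14 were higher and 0 lower, beside the same shares of all genes. The count of 1 became 0 without NC1153 replicate 1, without DMSO replicate 1, with log2(signal + 50) and with median or spike-in centring, 2 without NC1153 replicate 2, 3 with quantile normalization or without dim probe sets and 4 with the replicate block. GMNN was not called without DMSO replicate 1, and with no trend in the variance prior or with median centring none of the 5 lists held a call. These lists were compared by their counts and medians alone.

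**Figure D3:**
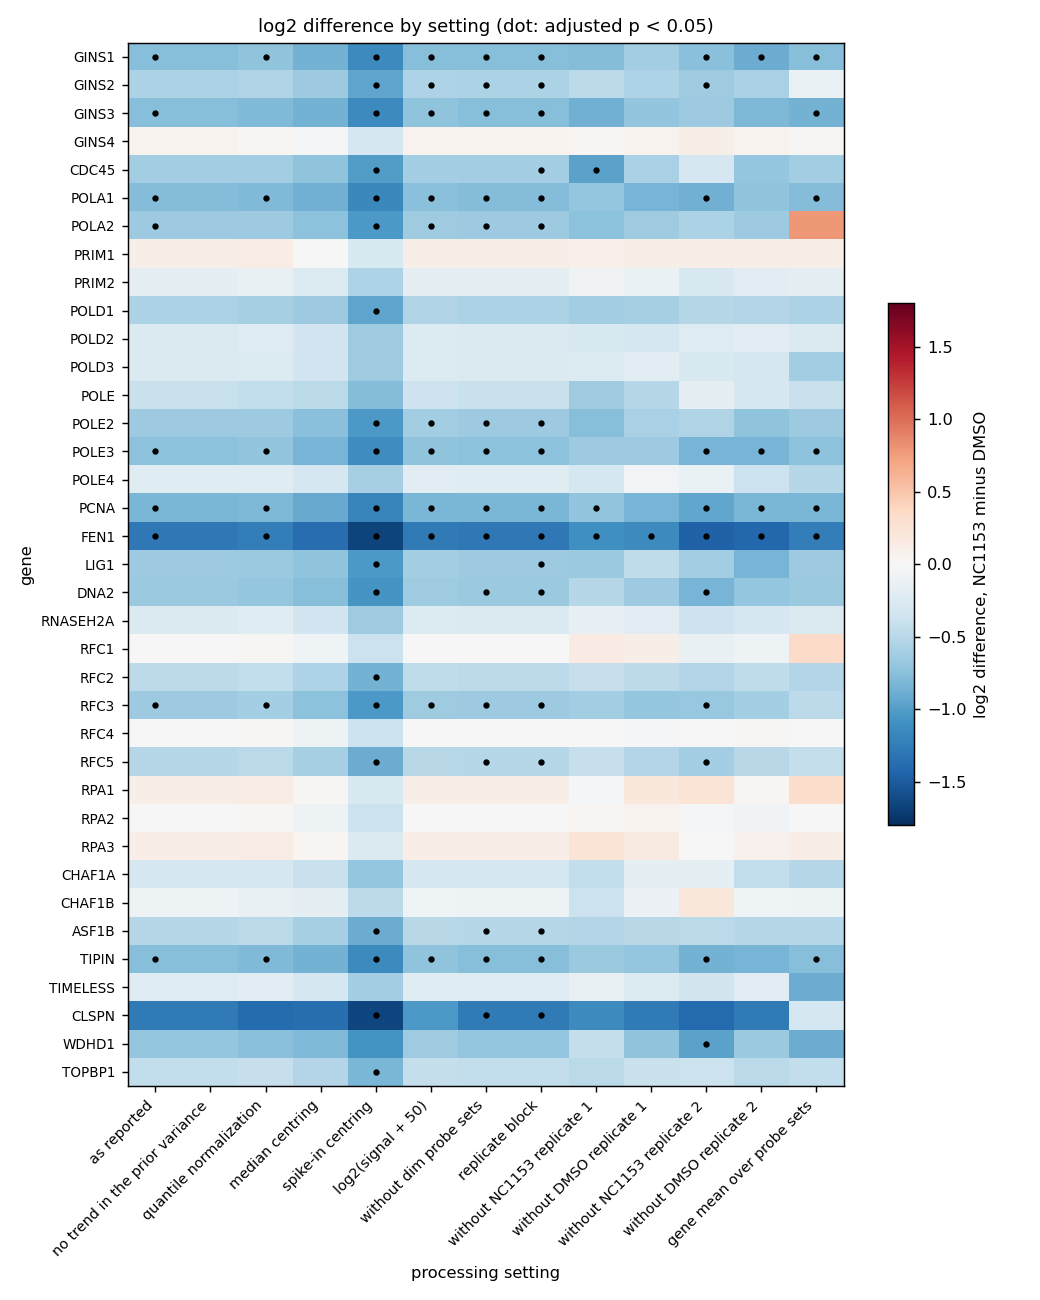
Log2 difference of each fork gene (rows) under the reported setting and 12 alternatives (columns), with blue for lower and red for higher with NC1153 and a dot where the adjusted p was under 0.05. FEN1 has dots in 10 of the 12 alternatives, RPA and primase genes have none, and the columns without a trend and with median centring hold no dot.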

How the data were processed

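HG-U133 Plus 2.0 arrays gave transcript signals for 4 Kit225 samples, 2 with NC1153 and 2 with DMSO, grouped by title. The deposited values are intensities on a linear scale, scaled so that each array has the same 2% trimmed mean (500.1). The software behind them is not given in the sources used here. In another deposited table the authors gave log2 values (RMA) and a raw p-value of 2252 probe sets, chosen by limma with Storey's q-value, per the file headers. Intensity was taken to log2 without a pseudocount, and low signals are noisy on that scale.

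NC1153 minus DMSO was fitted over 54613 non-control probe sets with limma 3.58.1 (lmFit, eBayes with trend) in R 4.3.3, two-sided, and calls needed a Benjamini-Hochberg adjusted p under 0.05. The fit has 2 residual degrees of freedom and borrowed 7.27. Code for the fit was tested on simulated data. Gene names came from the platform annotation, updated by gene identifier to RefSeq symbols (41037 of 41091 with 1 gene matched). The number of arrays limits the precision. All 37 members are named, and of each other list at most 4 called genes with the largest difference, with exceptions. MCM5 and ASF1A were added because each was the single gene of its list called higher. SUPT16H, NASP, SSRP1, RBBP4, RBBP7 and TONSL were added beside ASF1A, after their values were seen. Members and lists were chosen with earlier results of these data known.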

Additional observations from a re-analysis of the deposited data

How the results depend on the processing

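The 9 calls among fork genes became 0 with no trend in the variance prior (limma then called 0 probe sets of the whole array, with 5300 at an unadjusted p under 0.05). They also became 0 with median centring, where 24 probe sets of the whole array were called lower and 23 higher. They became 20 with spike-in centring, 15 without dim probe sets and 17 with the replicate block, and 1 to 11 with single arrays left out. Calls over the whole array moved too, from 971 probe sets lower and 1062 higher as reported. They were 1758 and 180 with spike-in centring, and 1936 and 2061 with the replicate block. Without dim probe sets they were 1564 and 1700 of 28453. Array-wide calls also changed with each single array left out. The fork gene counts alone therefore do not show a change particular to these genes. No setting called a fork gene higher. With no trend, median centring and spike-in centring just 0, 23 and 180 of 54613 probe sets were called higher, so this says little about the fork genes. All 9 genes kept their calls with spike-in centring, log2(signal + 50), the filter on dim probe sets and the replicate block, and 7 did with quantile normalization and with gene means. Array names in the authors' table share a code between arrays of the same number, whose meaning is not given, and no label says that the numbers mark a shared culture, batch or day. Deviations of equally numbered arrays correlated with r = 0.055 over all probe sets and 0.10 over the brighter ones, and with 2 pairs this does not settle a pairing, so the block is given as an alternative. With it 5.18% of all genes were called lower, against 2.84%.

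The median log2 difference of the fork genes was -0.51 as reported, -0.49 with quantile normalization, -0.60 with median centring, -0.89 with spike-in centring (median of all genes -0.38), -0.50 with log2(signal + 50) and between -0.50 and -0.48 with single arrays left out. It was -0.48 between the arrays numbered 1 and -0.46 between those numbered 2. Genes near 0 changed sign without being called. With spike-in centring GINS4 was at -0.31, PRIM1 -0.28, RFC1 -0.38, RPA1 -0.27, RPA2 -0.38 and RPA3 -0.26. With median centring GINS4 was at -0.02, RFC1 -0.08 and RPA2 -0.09, and with quantile normalization RFC4 was at 0.02. Leaving out single arrays moved RFC1 between -0.14 and 0.15, RFC4 between -0.03 and 0.02, RPA1 between -0.02 and 0.25, RPA2 between -0.07 and 0.07, RPA3 between -0.008 and 0.25 and CHAF1B between -0.38 and 0.20. The mean over probe sets turned POLA2 to 0.78. Among genes that were not called it moved GINS2 to -0.12, CLSPN to -0.31, TIMELESS to -0.89, POLD3 to -0.62, POLE4 to -0.52, CHAF1A to -0.52, RPA1 to 0.31 and RFC1 to 0.35. Causes were not tested. No detection calls were used, so low signals have no stated limit.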
